A study of Bos taurus with 15 samples.

Results

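Glycolysis, the pathway that splits glucose to lactate or pyruvate, runs in testis with 2 sets of enzymes. Somatic cells and early germ cells use the common forms GAPDH (glyceraldehyde-3-phosphate dehydrogenase), PGK1 (phosphoglycerate kinase), LDHA and LDHB (the subunits of lactate dehydrogenase) and PGAM1 (phosphoglycerate mutase). Germ cells add their own forms. LDHC appears in spermatocytes, PGK2 is an intronless copy of PGK1 that takes over during meiosis and is translated in spermatids, and GAPDHS is made in spermatids and bound to the fibrous sheath of the sperm tail, where glycolysis fuels movement in rodents. PGAM2 is the muscle form of the mutase and is also found in testis and sperm. The accounts of LDHC, PGK2 and GAPDHS rest mainly on work in mouse, rat and human.

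These 9 genes were taken from 15026 named genes on the array by name: a probe was kept when its gene name, gene number, accession or description named one of them. Of the 9, GAPDH had 2 probes and the other 8 had 1 each. All 9 were among the 12777 genes bright enough to be tested. The GAPDHS probe is named by its description alone, because its entry on the array is an expressed sequence tag, so its identity rests on that description. In the bovine assembly ARS-UCD2.0, LDHC and LDHA are neighbours on the chromosome.

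Testis tissue collected at the slaughterhouse was measured in 15 cattle, of which the series text calls the treated ones cows. The prednisolone group was 8 animals given this synthetic glucocorticoid by mouth, at a daily 30 mg per head over 35 days. The control group was 7 animals that received none. Breed, age and genotype are not given in the sources used here, each array held 1 animal, and no pairing between the groups is named.

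On 14 arrays the 75th percentile of processed signal lay between 1220 and 2780 and 82.2% to 89.9% of probes were well above background, against 49.8 and 36.5% for prednisolone 30. The array of prednisolone 30 correlated at 0.705 to 0.736 with the others, while each of the others correlated at 0.962 or more with every array except that one. Its scanner values also did not follow its own column in the authors' deposited table (gene-centred r of 0.0309, against 0.716 to 0.968 for the other 14 arrays). Which measurement belongs to that animal was not settled, so results are given with and without it. Control 17 lay at an extreme of 7 of the 9 genes among the other 14 animals, and values without it are given where they differ. Of 22 listed spermatid and sperm markers, 19 were on the array and 18 were bright enough to be tested. These 18 were well above background on 15 arrays. As tested genes had passed a filter on brightness, this is no independent check of the tissue label. Of 11 skeletal muscle markers, 9 were on the array and 5 were tested, with CKM, MYH1 and MYH2 among those not tested.

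All levels below are log2 distances of a probe from the 75th percentile of its array. Brightness also depends on the probe, so a level was set against the same gene in other animals and never against another gene. Differences are prednisolone minus control, tested with limma over 17411 probes and adjusted by Benjamini-Hochberg. Because the tissue was measured whole, fewer cells of a type and less RNA per cell cannot be told apart in any of these levels.

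None of the 9 isoforms passed the threshold of an adjusted p under 0.05, and neither did any other gene: 0 of 12777 genes were called, or 0%, with a smallest adjusted p of 0.885. At an unadjusted p under 0.05 there were 0 of the 9 isoforms and 337 genes (2.64%) on 15 arrays, and 0 of 9 and 542 genes (4.24%) without prednisolone 30. On 15 arrays 3 of the 9 isoforms had higher values with prednisolone, against 49.9% of all genes, and without prednisolone 30 it was 4 of 9, against 52.7%. The groups overlapped in all 9 isoforms, with and without prednisolone 30; they did not overlap in 6 of all genes (0.047%) on 15 arrays and in 9 (0.0704%) without that animal.

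GAPDHS, the sperm form of glyceraldehyde-3-phosphate dehydrogenase, varied most among the 9 over the 14 animals without prednisolone 30. Prednisolone animals had a lowest level of -3.09, a median of -2.72 and a highest of -1.79, and controls -4.30, -2.94 and -2.45. The group means were -2.61 ± 0.42 (SD, n = 8) with prednisolone and -3.20 ± 0.75 (SD, n = 7) in controls, and prednisolone minus control was 0.59 (95% interval -0.03 to 1.20; limma, unadjusted p = 0.0602, adjusted p = 0.885). The mean of the controls was exceeded in 8 of 8 treated animals, and the lowest controls were control 17 at -4.30 and control 20 at -4.10. Prednisolone 25 at -3.09 and prednisolone 31 at -2.95 lay below the control median of -2.94. The highest treated value, -1.79, was that of prednisolone 30, on whose array the probe was not well above background. Without that animal the difference was 0.47, without control 17 it was 0.40, and within the first scan day, without both, it was -0.24. That last value rests on controls 18 and 23 alone on the control side. The probe was dim, with processed signals of 102 to 448 on the other 14 arrays, and its 2 spots differed by an SD of 0.29 on the log2 scale, against 0.60 between animals.

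PGK2, the meiotic phosphoglycerate kinase, ran from 2.08 through a median of 2.88 to 3.53 in prednisolone animals, and from 2.48 through 3.12 to 3.53 in controls. Its means of 2.88 ± 0.49 (SD, n = 8) with prednisolone and 3.13 ± 0.37 (SD, n = 7) in controls differed by -0.26 ± 0.22 (SE; limma adjusted p = 0.885), and by -0.14 without prednisolone 30. The low values were shared by both groups: 2.49 and 2.57 in prednisolone 27 and 31, and 2.48 in control 17. The difference was -0.37 without control 17 and -0.33 within the first scan day.

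LDHC, the lactate dehydrogenase subunit of spermatocytes and later germ cells, was the most precisely measured of the germ cell forms, with an SD between spots of 0.053 against 0.26 between animals. Prednisolone animals ran from 1.21 through 2.23 to 2.52 and controls from 1.92 through 2.48 to 2.67. It differed by -0.18 (95% interval -0.61 to 0.25; limma adjusted p = 0.885). The lowest value, 1.21, came from prednisolone 30, and without that animal the groups averaged 2.29 ± 0.22 (SD, n = 7) with prednisolone and 2.34 ± 0.31 (SD, n = 7) in controls, a difference of -0.05. In the deposited table prednisolone 30 lay within the range of the other animals for LDHC, at 13.38 on the log2 scale of that table.

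PGAM2, the muscle and sperm form of phosphoglycerate mutase, had a range of 4.57 to 5.61 with a median of 5.39 in prednisolone animals, and of 4.47 to 5.72 with a median of 5.18 in controls. Its difference was 0.15 ± 0.19 (SE; limma adjusted p = 0.888), and it was 0.11 without prednisolone 30. The difference was 0.04 without control 17. Here the value of prednisolone 30, 5.57, lay among those of the other treated animals. The mean of the 5 skeletal muscle markers tested, centred over the 15 animals, ran from -0.25 to 1.68 with prednisolone, where 1.68 was prednisolone 30, and from -0.48 to 0.37 in controls. PGAM2 correlated with it at r = -0.45 over the 14 animals without prednisolone 30, which did not pass (permutation adjusted p = 0.185). The value was -0.11 without control 17 as well, and the sign turned in other sets of animals. It was 0.37 over the 11 animals described below and 0.07 over 15. The part of skeletal muscle in the PGAM2 level was not tested.

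**Figure D1:**
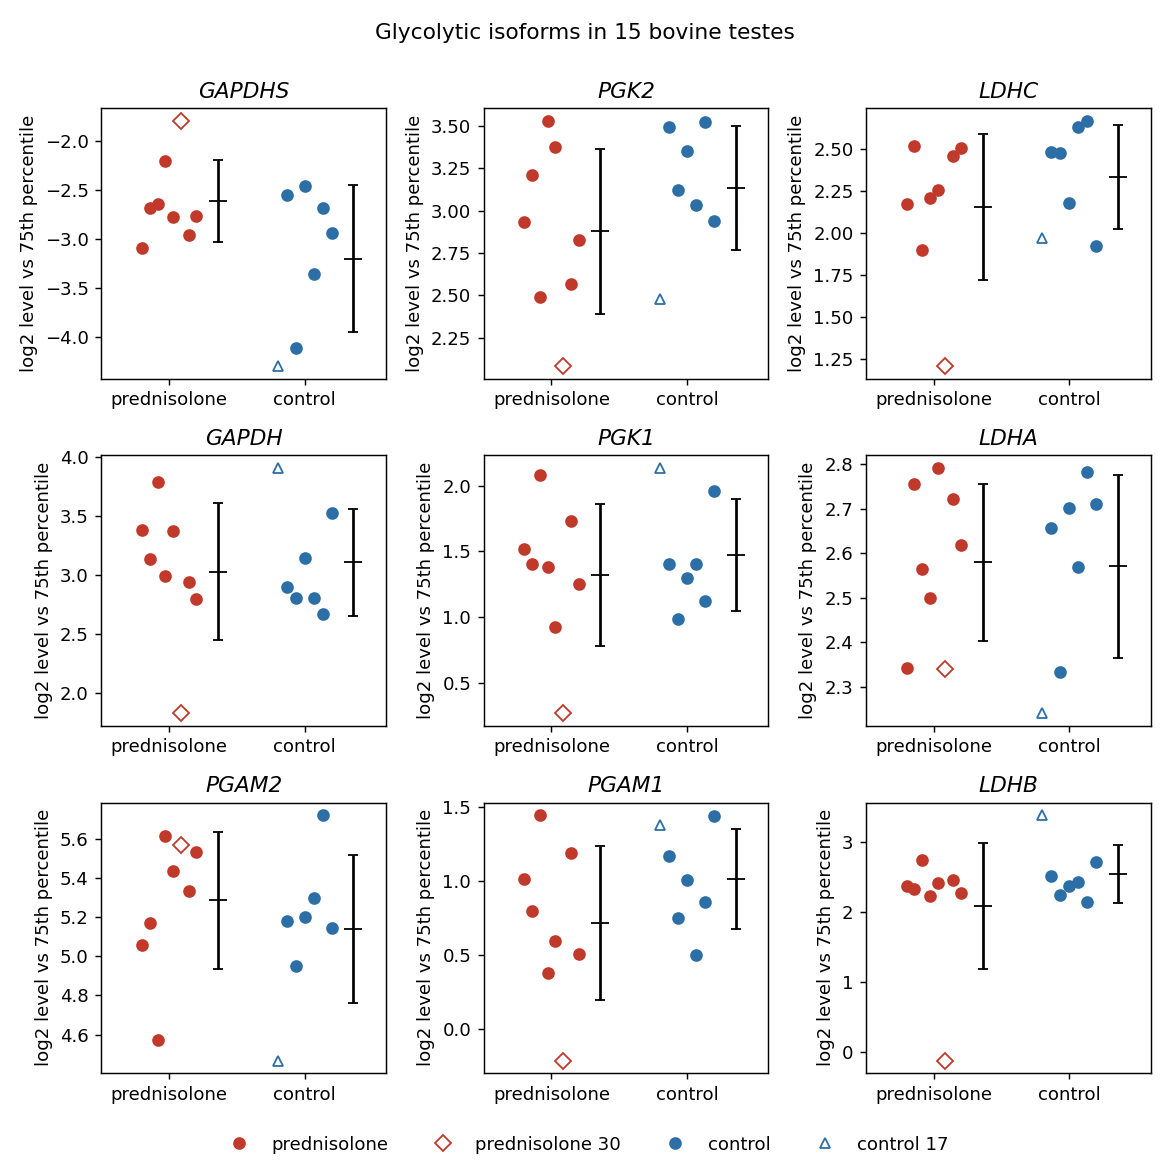
Log2 level of the 9 glycolytic isoforms relative to the 75th percentile of the array, 1 point per animal, prednisolone left and control right, with bars for the mean ± SD of each group. The groups overlap in every gene; the open diamond, prednisolone 30, is the lowest treated animal for PGK2, LDHC, GAPDH, PGK1, LDHA, LDHB and PGAM1, and the open triangle, control 17, is the lowest or highest control for 7 of the 9 genes.

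Among the somatic forms, GAPDH, which reduces NAD+ in the middle of the pathway, ran from 1.83 through a median of 3.06 to 3.78 in prednisolone animals and from 2.67 through 2.90 to 3.91 in controls. It differed by -0.08 (95% interval -0.63 to 0.47; limma adjusted p = 0.948). The sign turned without prednisolone 30, where it was 0.09, and without control 17, where it was 0.05.

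PGK1, which makes the first ATP of the pathway, ran from 0.27 through 1.39 to 2.08 in prednisolone animals and from 0.99 through 1.40 to 2.14 in controls. It differed by -0.15 (limma adjusted p = 0.897), and by -0.00 without prednisolone 30. PGAM1, the widely expressed mutase, ran from -0.22 through 0.69 to 1.45 in prednisolone animals and from 0.50 through 1.003 to 1.44 in controls, a difference of -0.30 (limma adjusted p = 0.885) that was -0.17 without prednisolone 30.

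LDHB, the lactate dehydrogenase subunit of oxidative tissues, ran from -0.13 through 2.34 to 2.75 in prednisolone animals and from 2.14 through 2.42 to 3.39 in controls. Its difference of -0.46 (95% interval -1.19 to 0.27; limma adjusted p = 0.885) rested on 2 animals. It was -0.14 without prednisolone 30, which held the -0.13, and -0.00 without both that animal and control 17, which held the 3.39. LDHA, the subunit of glycolytic tissues, varied least over 14 animals. It ran from 2.34 through 2.59 to 2.79 with prednisolone and from 2.24 through 2.66 to 2.78 in controls, so that they differed by 0.01 (95% interval -0.27 to 0.29; limma adjusted p = 0.988). Its SD of 0.18 across 14 animals was at or above that of 8.2% of tested genes. It was also smaller than the SD of 0.35 between its 2 spots, a limit that stands beside every correlation of LDHA given below.

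GAPDH has 2 probes and near relatives on the array. Its 2 probes correlated at r = 0.92 over 14 animals, and the second differed by -0.12 on 15 arrays and -0.01 without prednisolone 30. The probe of LOC616200, a predicted locus that the array describes as similar to GAPDH, correlated with the first GAPDH probe at r = 0.92. The probe of LOC514503, described in the same way, correlated with it at r = 0.75. Both are kept apart from GAPDH here. Whether near-identical copies add to the GAPDH signal was not tested.

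The question of whether the germ cell form gained or lost ground against its somatic counterpart was put as a gap, the log2 level of the germ cell probe minus that of the somatic probe on the same array. A gap carries the brightness of both probes, so only its differences between animals have meaning. Differences between groups were tested by exact two-sided permutation over all splits of 15 animals, with adjustment over 5 gaps.

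None of the 5 gap differences between the groups passed an adjusted p under 0.05 (exact permutation), and the groups overlapped in all 5 gaps. GAPDHS minus GAPDH averaged -5.64 ± 0.92 (SD, n = 8) with prednisolone and -6.30 ± 1.01 (SD, n = 7) in controls. This was the largest of the 5 differences, 0.67 (95% interval -0.36 to 1.76; exact permutation p = 0.227, adjusted p = 0.4996). It was 0.38 without prednisolone 30 (exact p = 0.424) and 0.06 without control 17 as well (exact p = 0.842). Those 2 animals held its ends, -3.62 in prednisolone 30 and -8.20 in control 17. As the GAPDHS probe was not well above background on the array of prednisolone 30, its gap there rests on an unmeasured level, and the value without that animal is the one with every level measured.

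PGK2 minus PGK1 averaged 1.56 ± 0.67 (SD, n = 8) with prednisolone and 1.66 ± 0.74 (SD, n = 7) in controls, a difference of -0.10 (95% interval -0.89 to 0.69; exact p = 0.774). It was wide in both groups, with 0.41 in prednisolone 27 and 2.45 in prednisolone 29, and with 0.34 in control 17 and 2.40 in control 23. LDHC minus LDHA averaged -0.42 ± 0.34 (SD, n = 8) with prednisolone and -0.23 ± 0.33 (SD, n = 7) in controls, a difference of -0.19 (95% interval -0.56 to 0.18; exact p = 0.300) that was -0.09 without prednisolone 30. Against LDHB the LDHC gap differed by 0.28 (95% interval -0.42 to 1.0; exact p = 0.433), with prednisolone 30 at 1.34 and control 17 at -1.41; without prednisolone 30 it differed by 0.10, and by -0.10 without both animals. PGAM2 minus PGAM1 averaged 4.57 ± 0.83 (SD, n = 8) with prednisolone and 4.13 ± 0.61 (SD, n = 7) in controls, a difference of 0.45 (95% interval -0.38 to 1.26; exact p = 0.258). It was 0.27 without prednisolone 30 and 0.10 without both.

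The first scan day was the only day with animals of both groups, 9 in all, and its controls were 17, 18 and 23. Within it the gap differences were 0.75 for GAPDHS minus GAPDH, 0.04 for PGK2 minus PGK1, -0.23 for LDHC minus LDHA, 0.55 for LDHC minus LDHB and 0.72 for PGAM2 minus PGAM1. Without control 17 and prednisolone 30 on that day, they were -0.58, -0.63, -0.12, -0.23 and 0.05 in the same order. The only controls there were 18 and 23. The smallest exact p among the 5 in those 7 animals was 0.0952, and their number limits what such a test can show.

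**Figure D2:**
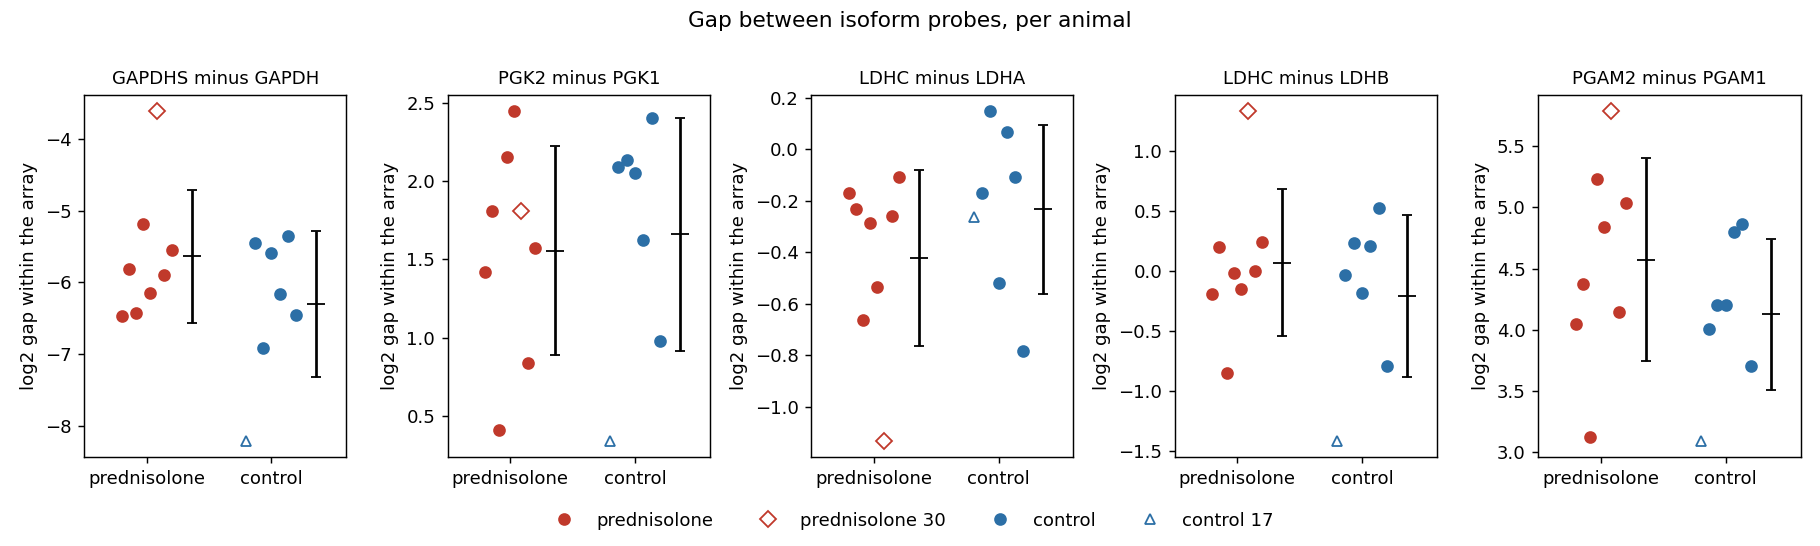
Within-array log2 gap between a germ cell or muscle isoform probe and its counterpart, 1 point per animal, prednisolone left and control right, with bars for the mean ± SD. The groups overlap in all 5 gaps, and control 17 is the lowest control in 4 of them.

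The animals followed an order shared by several isoforms. Over the 14 animals without prednisolone 30, GAPDH, PGK1, LDHB and PGAM1 rose and fell together, with r of 0.64 to 0.81 in their 6 pairs. In all 4 genes the 3 highest animals were control 17, control 24 and prednisolone 27. PGK2, LDHC and PGAM2 correlated with each other at 0.43 to 0.66. All 12 of their pairs with those 4 somatic forms were negative, at -0.90 to -0.54. The same 3 animals were the 3 lowest in LDHC. Prednisolone 27 and control 17 were the 2 lowest in PGK2 and PGAM2. The correlations among PGK2, LDHC and PGAM2 depended on the scaling: without prednisolone 30 they were 0.08 to 0.32 with quantile normalization and 0.06 to 0.26 in the deposited table, and 0 of 3 passed the permutation test in either. The 12 pairs between the sets stayed negative there, at -0.75 to -0.40 and -0.73 to -0.39, and 4 and 3 of them passed.

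Of all 36 pairs, 21 passed an adjusted permutation p under 0.05 with Pearson's r over 14 animals. It was 6 of 6 among the somatic forms, 2 of 3 among PGK2, LDHC and PGAM2, and 10 of 12 between the sets. In these counts, here and in the next paragraph, the somatic forms are GAPDH, PGK1, LDHB and PGAM1, without LDHA. GAPDHS, a germ cell form, is in neither set. The sets follow the shared order described above, not the division into germ cell and somatic forms. LDHA had r of -0.42 to -0.09 with these somatic forms, and none of those pairs passed. Among GAPDHS, PGK2 and LDHC, 0 of 3 pairs passed. Many genes on the array correlated with an isoform as strongly. Values as high as those among the somatic forms were reached with the same isoform by 0.958% to 11.5% of genes bright on all 14 arrays, and values as high as those among PGK2, LDHC and PGAM2 by 6.84% to 25.2%. Values as low as those between the sets were reached by 0.0322% to 12.4% of genes with PGK2, LDHC or PGAM2 and by 0.435% to 19.8% with the somatic forms. By rank (Spearman's rho) 2 pairs passed. These were LDHC with GAPDH and PGK1 with LDHB. Over 15 animals 11 pairs passed, and only 3 of the 12 pairs between the sets, where r ran from -0.72 to 0.51: prednisolone 30, low in both sets except PGAM2, decided those values. In the deposited table, in which that animal has other values, all 12 were negative over 15 animals, at -0.74 to -0.41, and 5 passed.

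The relations rested largely on the 3 animals named above. With control 17, control 24 and prednisolone 27 left out too, 0 of 36 pairs passed over 11 animals by the same permutation test, and LDHC with GAPDH alone had an unadjusted p under 0.05. The 6 pairs of somatic forms then had r of 0.06 to 0.47, and the 12 pairs between the sets -0.78 to 0.01. These 3 animals were chosen for leaving out after their values were seen. They came from both groups and from 3 slides. Prednisolone 27 was alone on its slide and its scan day, so that animal and its batch cannot be told apart. Within each group of 7, these animals included, the r of LDHC with GAPDH was -0.84 with prednisolone and -0.93 in controls.

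LDHC with GAPDH was the strongest of the 36 pairs over 14 animals. These genes encode enzymes of different steps, so they are not counterparts. Their r was -0.90 and their rho -0.87 (permutation adjusted p = 0.00108 and 0.0054). LDHC stood at 1.90, 1.92 and 1.98 in prednisolone 27, control 24 and control 17, and GAPDH at 3.78, 3.52 and 3.91 in the same animals. At the other end, control 23 had the highest LDHC, 2.67, and the lowest GAPDH, 2.67. The relation had r = -0.86 without the 2 animals farthest in LDHC (control 24 and prednisolone 27), -0.90 without control 17, -0.96 over the 8 animals of the first scan day, and -0.78 over 11 animals without the 3 named above (unadjusted permutation p = 0.005, adjusted p = 0.18). Of 12420 genes bright on all 14 arrays, 4 correlated with LDHC at or below that value, GAPDH included, or 0.0322%, and 0.435% of genes correlated with GAPDH at or below it. Over 15 animals with prednisolone 30, which was low in both genes, r was 0.07, and in the deposited table it was -0.67 over 15 animals (adjusted p = 0.0192).

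Counterparts of one enzyme differed in how they went with each other. PGK2 and PGK1 correlated at r = -0.74 and rho = -0.68 over 14 animals (permutation adjusted p = 0.0123 and 0.0559). The value was -0.67 without control 17, -0.52 without control 17 and prednisolone 27, -0.50 over the 11 animals, and -0.09 over 15. PGAM2 and PGAM1 correlated at r = -0.68 and rho = -0.63 (adjusted p = 0.0203 and 0.0668), and at -0.47 without control 17 and prednisolone 27. LDHC and LDHB correlated at r = -0.65 and rho = -0.57 (adjusted p = 0.0174 and 0.0707) but at -0.14 over the 11 animals.

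LDHC with LDHA (r = 0.31, rho = 0.38, permutation adjusted p = 0.328 and 0.252) and GAPDHS with GAPDH (r = -0.23, rho = -0.10, adjusted p = 0.479 and 0.781) did not pass over 14 animals. The spread between the spots of the LDHA and GAPDHS probes, given above, stands beside both values. LDHA instead went with GAPDHS, at r = 0.69 (adjusted p = 0.0204), but rho was 0.35 and r was 0.15 without control 17 and control 20, the lowest animals in both genes. That relation rested on those animals.

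**Figure D3:**
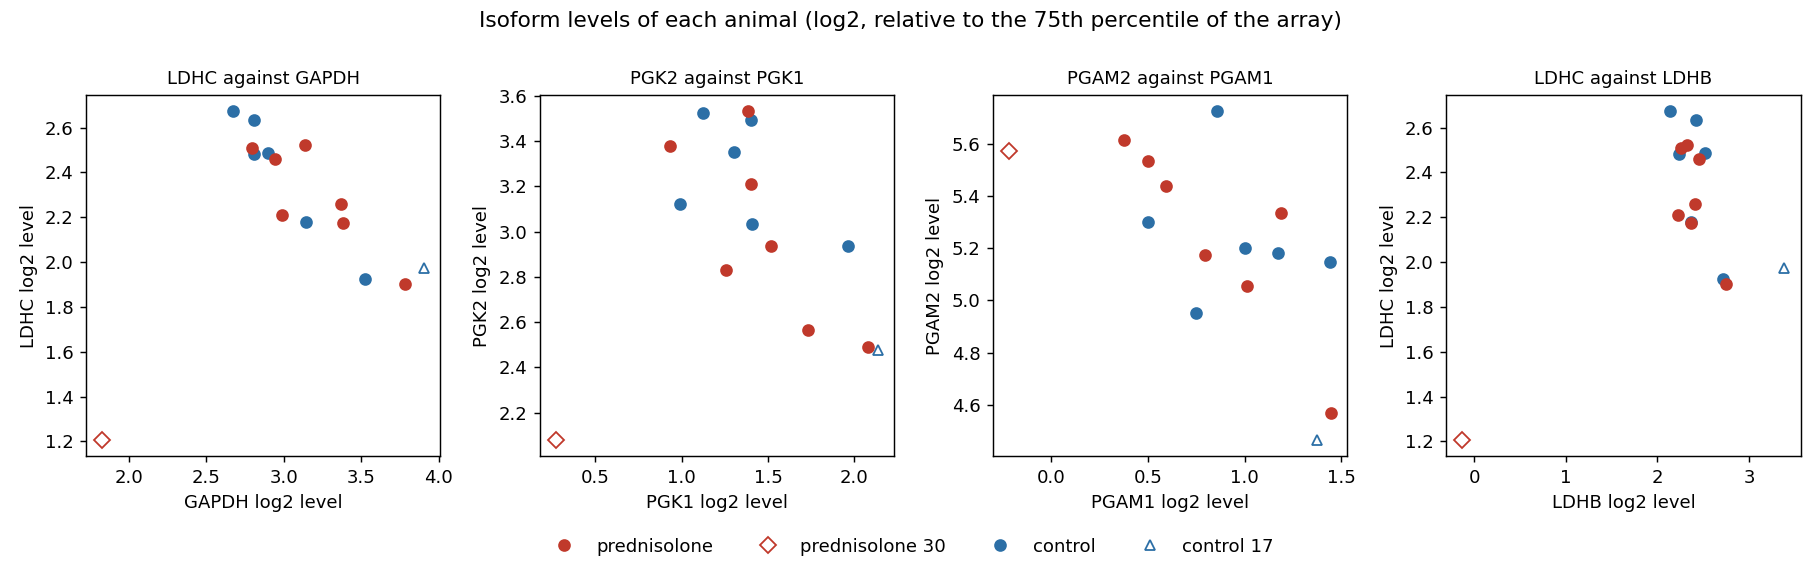
Log2 levels of 4 pairs of isoforms, 1 point per animal, red for prednisolone and blue for control. Without prednisolone 30, the points fall from upper left to lower right in LDHC against GAPDH, PGK2 against PGK1 and PGAM2 against PGAM1. Treated and control animals are mixed along the line. Prednisolone 30, the open diamond, has the lowest GAPDH, PGK1, PGAM1 and LDHB and also the lowest LDHC and PGK2. It therefore lies at the lower left, off the line, in LDHC against GAPDH and PGK2 against PGK1.

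**Figure D4:**
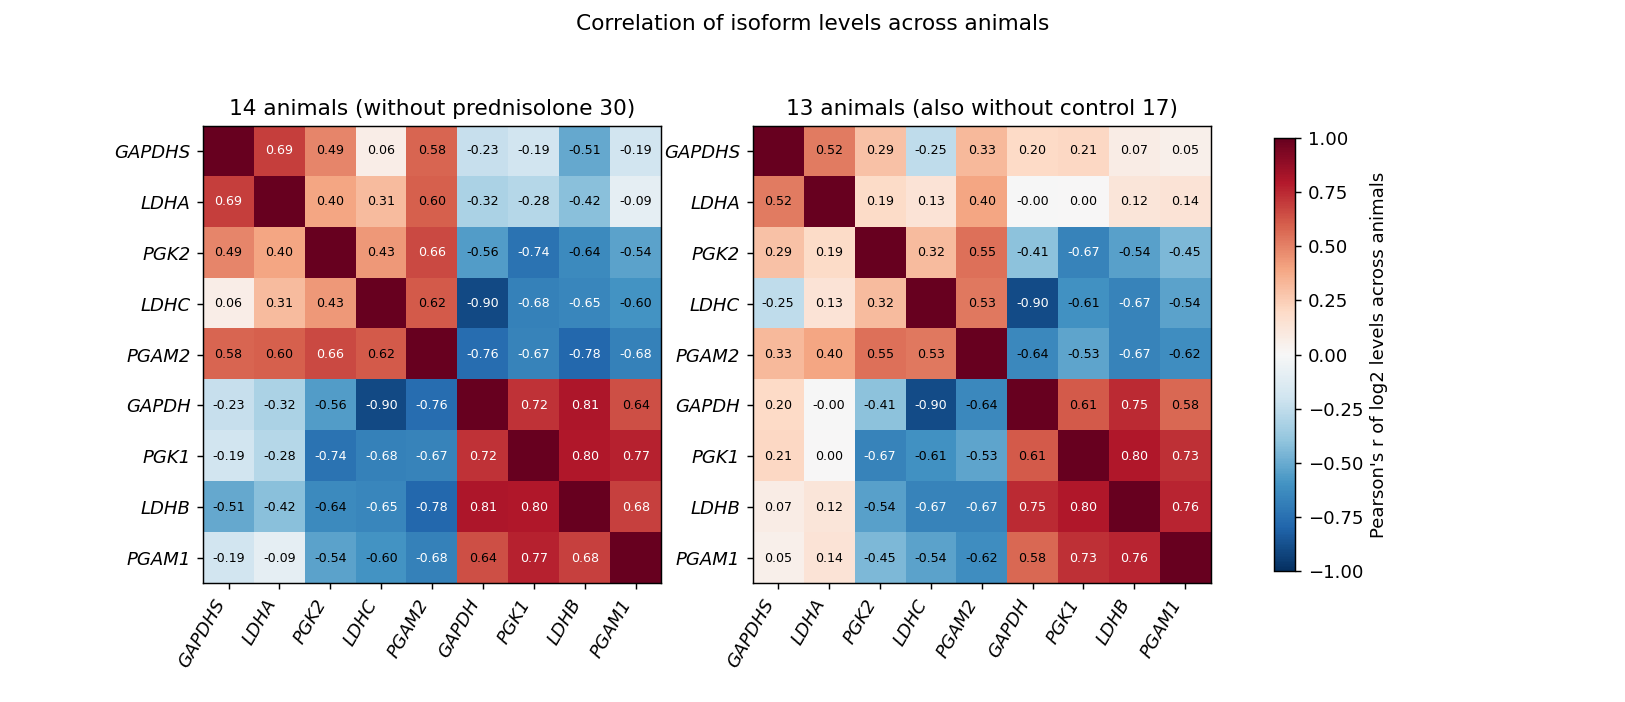
Pearson's r between the log2 levels of each pair of the 9 isoforms across animals, on 14 animals without prednisolone 30 (left) and on 13 also without control 17 (right), with the colour scale from -1 to 1. GAPDH, PGK1, LDHB and PGAM1 form a positive block and are negative with PGK2, LDHC and PGAM2 in both panels; GAPDHS and LDHA correlate with each other at 0.69 and 0.52.

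The isoforms were set beside the marker lists of testis cell types, each list taken as the mean of its centred log2 levels, in 126 relations over 14 animals. LDHC went with the spermatocyte list, genes of meiotic recombination and chromosome pairing, at r = 0.84 and rho = 0.79 (permutation adjusted p = 0.0042 and 0.0206), and had r = 0.61 over the 11 animals. Of the 12 genes of that list, 11 correlated positively with LDHC over 14 animals and 1 negatively. PGAM2 went with the spermatid and sperm list at r = 0.87 and rho = 0.86 (adjusted p = 0.00189 and 0.0139), with r = 0.83 over the 11 animals. PGK2 went with the same list at r = 0.73 and GAPDHS at r = 0.72 (adjusted p = 0.0084 and 0.0195). Of the 18 genes of this list, 18 were positive with PGAM2, 18 with GAPDHS and 17 with PGK2 over 14 animals. For GAPDHS rho was 0.57 and did not pass, and r was 0.46 without control 17. LDHA, a somatic form, went with this list too, at r = 0.64 (permutation adjusted p = 0.0359), with 18 of 18 genes positive. Its rho of 0.57 did not pass, and its r was 0.40 without control 17.

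GAPDH followed the Sertoli cell list, of the cells that nurse germ cells, at r = 0.88 and rho = 0.84 (permutation adjusted p = 0.00294 and 0.0139), with r = 0.73 over the 11 animals. Of the 12 Sertoli genes, 10 correlated positively with GAPDH over 14 animals and 2 negatively, from r = -0.29 (SOX9) to 0.91. GAPDH opposed the spermatocyte list at r = -0.89, with 11 of its 12 genes negative. PGK1 and PGAM1 followed the Sertoli list at 0.78 and 0.76, and at 0.40 and 0.51 over the 11 animals. By rank PGAM1 passed (permutation adjusted p = 0.0153) and PGK1 did not (adjusted p = 0.0657). For each of them 10 of the 12 Sertoli genes were positive and 2 negative, with SOX9 at -0.24 for PGK1 and -0.34 for PGAM1. Other somatic lists went with these genes too over 14 animals: the peritubular and smooth muscle list had r = 0.80 with GAPDH and 0.76 with PGK1 (permutation adjusted p = 0.00522 for both), and the endothelial list 0.72 and 0.68 (adjusted p = 0.0144 and 0.0153). The skeletal muscle list had 0.75 with GAPDH and 0.66 with PGK1 (adjusted p = 0.0084 and 0.0336). None of these 6 passed by rank. LDHB had its strongest relation with the endothelial list, at r = 0.89, but it was 0.63 without control 17 and 0.38 without control 17 and prednisolone 27, against 0.83 and 0.73 for LDHB with the Sertoli list. The isoforms were members of none of these lists. Of 9 isoforms, none passed with the array's 75th percentile or with its share of probes above background. The nearest was PGK2 with that share, at r = -0.60 (adjusted p = 0.0641).

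The marker lists themselves overlapped between the groups, and 0 of their genes passed the threshold. The mean of the 18 tested spermatid and sperm markers ran from -0.42 to 0.43 in prednisolone animals and from -0.77 to 0.43 in controls. The lowest treated animal was prednisolone 30 and the lowest control was control 17. Without prednisolone 30 the treated range was -0.15 to 0.43. Among the 12 spermatocyte markers the mean ran from -0.34 to 0.13 with prednisolone and from -0.36 to 0.30 in controls. For the 12 Sertoli markers it ran from -0.87 to 0.60 with prednisolone and from -0.28 to 0.33 in controls, with the lowest in prednisolone 30 and the highest in prednisolone 27. For the 9 peritubular and smooth muscle markers it ran from -1.21 to 0.45 with prednisolone and from -0.37 to 1.31 in controls. The lowest was prednisolone 30 and the highest control 17. Without prednisolone 30 the treated range was -0.17 to 0.45. These lists therefore stood apart in the same animals as the isoforms did, and their part in the isoform levels was not tested.

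**Figure D5:**
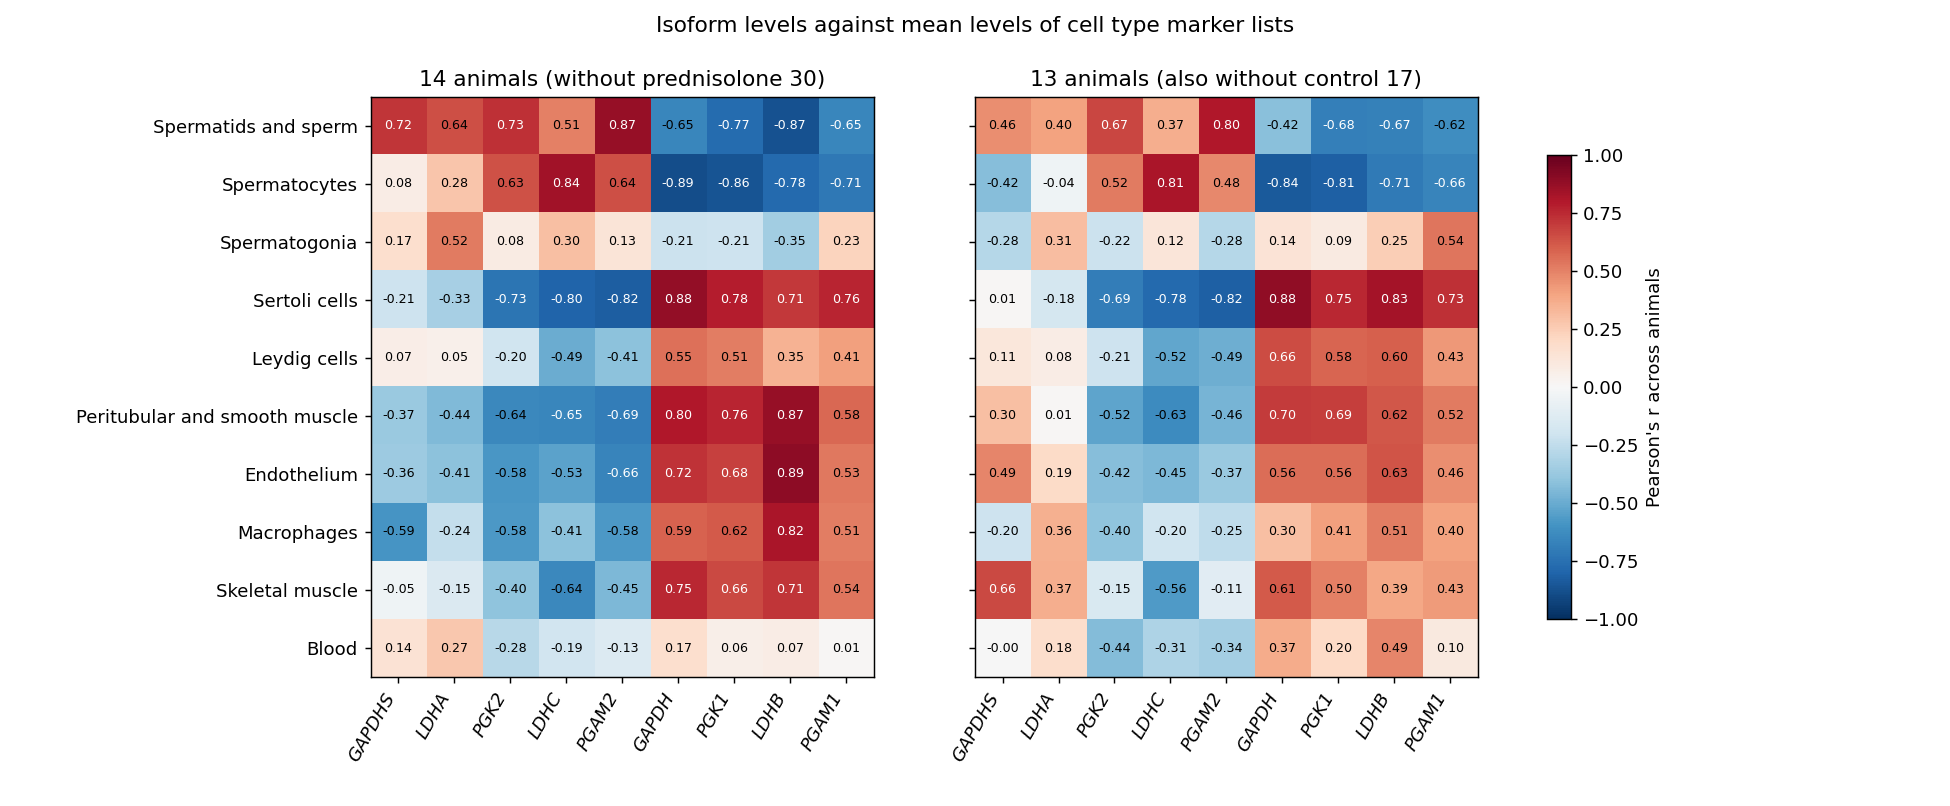
Pearson's r across animals between the log2 level of each isoform (columns) and the mean centred log2 level of 10 cell type marker lists (rows), on 14 animals (left) and on 13 without control 17 (right). PGK2, LDHC and PGAM2 are positive with spermatid and spermatocyte lists and negative with the Sertoli list; GAPDH, PGK1, LDHB and PGAM1 show the opposite signs in both panels.

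Among the other enzymes of the pathway, 19 of 22 were tested and 0 passed. On 15 arrays 8 had higher and 11 lower values with prednisolone, with a median difference of -0.01, against -0.00 over all genes tested, and without prednisolone 30 it was 15 higher and 4 lower with a median of 0.08, against 0.01 over all genes, of which 52.7% were higher. HK2, BPGM and ENO4 were not tested. PFKP, a phosphofructokinase, had the smallest unadjusted p, with means of 4.26 ± 0.24 (SD, n = 8) with prednisolone and 3.91 ± 0.42 (SD, n = 7) in controls, a difference of 0.35 (limma, unadjusted p = 0.0711, adjusted p = 0.885). ENO1, the common enolase, differed by 0.76, and by 0.34 without prednisolone 30; its dim probe was above background on 13 arrays. ALDOA, an aldolase, differed by 0.16, and by 0.08 without control 17. TPI1, triose phosphate isomerase, differed by -0.14, and by -0.00 without prednisolone 30. Across 14 animals 16 of the 19 correlated positively with PGAM2 and 3 negatively, from r = -0.73 (PKM, a pyruvate kinase) to 0.91 (ALDOA), and without control 17 it was 13 and 6. PFKL, a phosphofructokinase, had -0.60 with PGAM2, and PKM and PFKL had 0.83 and 0.87 with GAPDH. PKM and PFKL were chosen after their values were seen.

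The mean of the 19 enzymes went with GAPDHS at r = 0.86, LDHA at 0.77 and PGAM2 at 0.74 over 14 animals (permutation adjusted p = 0.00518, 0.00749 and 0.0144). Over 11 animals r was 0.77, 0.70 and 0.79. For LDHA the spread between spots, larger than that between animals, stands beside these values. The rank correlation of GAPDHS with this mean was 0.71 (adjusted p = 0.0531), and that of LDHA 0.60 (adjusted p = 0.11).

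Genes of the surrounding pathways gave the same count of 0. Among 6 tested of the 7 genes that set fructose-2,6-bisphosphate or reverse the pathway, 3 had higher and 3 lower values. FBP2, a fructose bisphosphatase, differed by 0.83 (limma, unadjusted p = 0.0546, adjusted p = 0.885) at levels far below the 75th percentile, and by 0.53 without prednisolone 30. Of 21 genes of pyruvate and lactate handling 19 were tested, with 7 higher and 12 lower on 15 arrays. Without prednisolone 30 it was 13 higher and 6 lower, against 52.7% of all genes higher. PDK2, a pyruvate dehydrogenase kinase, had the smallest p on 15 arrays, with a difference of 0.28 (limma, unadjusted p = 0.0623, adjusted p = 0.885). Without prednisolone 30 its difference was 0.31 (limma, unadjusted p = 0.0197, adjusted p = 0.964). There 4.24% of all genes had an unadjusted p under 0.05. Among 13 hypoxia targets, 9 were higher and 4 lower, from -0.17 in P4HA1 to 0.45 in NDRG1. NDRG1 differed by 0.01 without prednisolone 30. Of the fibrous sheath proteins, to which GAPDHS binds, 5 of 7 were tested. AKAP3 differed by 0.21, AKAP4 by 0.03, ROPN1 by -0.09, ROPN1L by -0.00 and CABYR by -0.09. Without prednisolone 30 these were 0.26, 0.21, 0.04, 0.20 and -0.06, and AKAP3 was 0.07 without control 17. The 5 correlated with GAPDHS at r = 0.18 (CABYR) to 0.73 (ROPN1L) over 14 animals and at -0.27 to 0.51 without control 17. With PGAM2 they had r of 0.66 to 0.89, and of 0.50 to 0.84 without control 17.

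The genes most like each isoform were ranked by Pearson's r over 14 animals among 12421 genes bright on all of those arrays. GAPDHS was most like ALPK2 (r = 0.95), SLAMF8 (0.94), CPAMD8 (0.91) and ACR (0.91), the last being acrosin, the protease of the sperm acrosome. PGK2 was most like NDUFA8 (0.96), LRRC23 (0.95), PDCL2 (0.94) and SMG5 (0.91). LDHC was most like LOC524181 (0.98), CENPC (0.95), HYOU1 (0.93) and INPP5F (0.93). Without control 17 these 12 values were 0.86 to 0.97. With prednisolone 30 they fell to as low as 0.21 (ACR) and were 0.96 and 0.97 for LOC524181 and INPP5F.

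GAPDH was most like FZD2 (r = 0.97), PRDX2 (0.96), LCAT (0.96) and CAVIN3 (0.95), and PGK1 was most like MYOF (0.94), EGLN1 (0.93), NRP2 (0.93) and HACD2 (0.92). With prednisolone 30, r with GAPDH was 0.41 for FZD2 and 0.97 for PRDX2. LDHA was most like TMEM144 (0.88), PPP1R11 (0.87), AMD1 (0.85) and EDEM1 (0.85), the lowest top values of the 6 genes compared. The 9 isoforms were left out before ranking, so none of them could be among the 24 genes. With 14 animals and so many genes, high values of r arise by ranking alone, and no p is given.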

How the data were processed

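Total RNA of 15 testes was labelled with cyanine 3 and hybridised to single-colour arrays. The deposited scanner files hold the intensity of each spot, from Feature Extraction 9.5.1.1 per the file headers, and per the series' design text the processed signal combines scans at a high and a low sensitivity after background subtraction and detrending. The authors' deposited table of intensity values, which was used as an alternative, is on a linear scale. No source used here says how those columns were made comparable; R 2.11.1 is named per the submitters' processing notes.

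Control spots and spots marked as outliers were left out (42990 spots, 21475 probes). From the log2 signals the array's own 75th percentile was subtracted, and spots of a probe were averaged. A probe was tested when well above background on at least 7 arrays of either group (17411 probes). Of all probes, 16245 had a gene symbol, found through the files' accessions, gene numbers and names and the ARS-UCD2.0 gene table. No coordinates are printed, since the files name no genome build. Where a gene had several probes, the one with the highest mean stood for it.

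The group test was limma's moderated fit (version 3.58.1, R 4.3.3; two-sided; Benjamini-Hochberg over all tested probes; threshold 0.05). Gaps were tested by exact permutation, with 95% intervals by inversion of the test on a grid of 0.01. Correlations were tested by 100000 permutations, adjusted over 36 pairs (126 relations for marker lists, the other glycolytic enzymes and the array measures). The fit was tested on simulated data with known changes. It called 6.86% of genes changed by 0.5 on the log2 scale, 57.7% at 1 and 94.7% at 2. Of its calls 0.843% were false. A change near 0.5 would thus mostly go uncalled. The number of arrays limits the precision.

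All 9 isoforms are named. Other genes are named by rule: the 4 genes most like each of 6 isoforms, and up to 6 genes per list with the smallest unadjusted p. CKM, MYH1, MYH2, PKM, PFKL and SOX9 were named after their values were seen. The isoforms, the lists and this rule were chosen with earlier results of these data known. Alternatives covered scaling, background correction, the deposited table, filters, slide, scan day, array weights and leaving out animals. Both groups were present on slides 1 and 4 and on scan day 1 alone. No sequence of a probe or protein was used here.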

Additional observations from a re-analysis of the deposited data

Results flagged for a closer look

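In 28 groups of values (9 levels and 5 gaps in 2 groups of animals), 3 held an animal far from the others by Dixon's test, where chance flags about 1 in 20 groups, or 1.4 here. All 3 were prednisolone 30, whose array also stood apart as a whole. Its LDHB level was -0.13, against 2.23 in the nearest treated animal, its LDHC level was 1.21, against 1.90, and its gap of GAPDHS minus GAPDH was -3.62, against -5.19; its GAPDHS probe was not well above background. Control 17 met the criterion in 0 groups, although it held the lowest or highest control value of 7 isoforms.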

How the results depend on the processing

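None of the 9 isoform differences or 5 gap differences changed its call under any alternative run, and 0 genes passed the threshold in each; the smallest adjusted p was 0.0727, with array weights (limma). No paired analysis was possible because the groups share no animal numbers. GAPDHS had no value with only probes well above background on all arrays. Leaving out 1 animal at a time gave 0.40 to 0.71 for GAPDHS, -0.37 to -0.14 for PGK2, -0.25 to -0.05 for LDHC, 0.04 to 0.25 for PGAM2, -0.19 to 0.093 for GAPDH, -0.26 to -0.00 for PGK1, -0.046 to 0.044 for LDHA, -0.55 to -0.14 for LDHB and -0.41 to -0.17 for PGAM1. The gaps gave 0.35 to 0.82 (GAPDHS minus GAPDH), -0.32 to 0.060 (PGK2 minus PGK1), -0.28 to -0.09 (LDHC minus LDHA), 0.08 to 0.41 (LDHC minus LDHB) and 0.27 to 0.66 (PGAM2 minus PGAM1). Signs turned as follows, and the cause was not tested. Without control 17 and prednisolone 30, GAPDH was 0.23, PGK1 0.11, LDHA -0.012, PGAM2 -0.0048 and the gap of LDHC minus LDHB -0.10. The same within scan day 1 (added after the data were seen) gave GAPDHS -0.24, PGAM2 -0.14, GAPDH 0.34, PGK1 0.10, LDHA -0.073, LDHB 0.032, GAPDHS minus GAPDH -0.58 and LDHC minus LDHB -0.23. Controls 18 and 23 were the only controls behind those values of scan day 1. Slide 1 held control 17, control 18, prednisolone 25 and prednisolone 26 alone. Within it, PGK2 was 0.087, LDHC 0.12, PGK2 minus PGK1 0.40 and LDHC minus LDHA 0.016. With array weights, LDHC was 0.035, GAPDH 0.094, PGK1 0.015 and LDHC minus LDHA 0.031. GAPDH was 0.093 without prednisolone 30, 0.054 without control 17, 0.026 in the deposited table and 0.056 there without prednisolone 30. LDHA was -0.046 without control 17, -0.031 without control 20, -0.016, -0.021 and -0.011 without prednisolone 26, 29 and 31, -0.018 with quantile normalization, -0.054 with median scaling, -0.089 with normexp and -0.025 with slide as a block. PGK2 minus PGK1 was 0.036 within scan day 1 and with scan day as a block, 0.13 with slide as a block, 0.020 without control 23 and 0.060 without prednisolone 27.

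Of 36 pairs, 11 passed on 15 animals, 21 without prednisolone 30, 6 without control 17, 5 without both and 7 with quantile normalization; added after the data were seen, it was, without prednisolone 30, 19 with median scaling, 10 with quantile normalization, 9 with normexp, 9 in the deposited table, 17 within scan day 1 and 0 over 11 animals. The correlation of LDHC with GAPDH, 0.073 on 15 animals, was 0.19 without control 17 alone, -0.90 without prednisolone 30, -0.90 without both, -0.67 in the deposited table, -0.67 there without prednisolone 30, and, without it, -0.68 with quantile normalization, -0.92 with median scaling, -0.62 with normexp (adjusted permutation p = 0.055), -0.96 within scan day 1 and -0.78 over 11 animals. LDHC with LDHB, 0.51 on 15 animals, was 0.66, -0.65, -0.67, -0.41, -0.39, -0.40, -0.65, -0.35, -0.79 and -0.14 in the same order. PGK2 with PGK1 was -0.74 without prednisolone 30 and, with it, 0.057 without control 17, 0.013 with quantile normalization, 0.26 with median scaling and 0.026 with normexp. LDHC with LDHA was -0.044 in the deposited table, -0.19 there without prednisolone 30 and -0.16 with quantile normalization without it. GAPDHS with GAPDH was 0.20 without both animals and 0.21 over 11. The spread between spots exceeded that between animals for LDHA.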
